A study of Mus musculus with 8 samples.

Results

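Wide anchors are the long intervals at which many loops of a Hi-ChIP map end. Hi-ChIP cuts and religates fixed chromatin and then enriches the fragments bound by 1 protein, so that a loop is a pair of distant intervals, the anchors, that were joined in the library. An anchor was counted as wide when it measured 6000 bp or more, and 862 of the 30542 distinct anchors in the loop lists of FOXA1 and HNF4G met this rule (2.82%). The rule used length alone and no loop count. The anchors just inside it measured 6000 bp (starts of Mindy1 and Prune1), 6005 bp (Capns1) and 6006 bp (Mbnl1), with 77, 64 and 33 loops, and those just outside measured 5997, 5994 and 5994 bp, with 93, 63 and 73 loops.

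FOXA1 is a forkhead factor that can open closed chromatin, and HNF4G is a nuclear receptor of the digestive epithelia. Both were assayed in KPC mouse pancreatic cancer cells, from a genetically engineered model in which tumours arise in the pancreas. The cells were a line from a primary tumour and a line from a matched liver metastasis (liver mets). All cells were labelled WT and untreated and were grown in DMEM with 10% FBS. The 4 groups were FOXA1 liver mets, FOXA1 tumour, HNF4G liver mets and HNF4G tumour, with 2 replicates each that shared 1 loop list. Each context was therefore represented by a single cell line and each group by a single list, and no test between groups was possible. All 95% intervals below cover counting error only and treat loops and anchors as independent, although loops share anchors. The number of sequenced reads behind each list is unknown. The lists held 125623, 104136, 78098 and 76323 loops in the order just given, so counts of single anchors were compared as shares of their list. This order of the lists is kept below wherever 4 counts are given.

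An anchor in such a map is usually built from places of protein binding, extended to the nearest cutting sites of the restriction enzyme. Which binding sites gave the anchors of these lists is not stated in the sources used here. The anchors formed 1 common set, so an anchor had the same length in every list that used it. Its length is therefore no measure of binding by 1 factor in 1 line. Closely spaced binding sites can end up in 1 anchor. Several keratins are markers of epithelial cells, and the AP-1 factors answer growth signals. Promoters are the stretches at which transcription starts, and many of them are rich in the dinucleotide CpG.

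All 30542 anchors, wide and narrower, began at the A and ended at the G of a GATC, the site cut by DpnII. The sequence across both ends is shown for the anchors at Krt18 and Neat1 and for the widest anchor, since these sites set where a wide anchor stops. Capitals mark the GATC, and all sequences are from GRCm38 (mm10), plus strand. The Krt18 ends are chr15:102021796-102021818 and chr15:102035798-102035819. The ends of the Neat1 anchor that also holds the start of Frmd8os are chr19:5839174-5839196 and chr19:5851416-5851437. Those of the widest anchor, in Ranbp3l, are chr15:9013733-9013755 and chr15:9054851-9054872.
Krt18 left end: aaggtgtcaGATCccctacaact
Krt18 right end: gattatgtaaaGATCtcttgat
Neat1 left end: gagccctggGATCtctgacctcc
Neat1 right end: cctcacataatGATCtgaagcc
Ranbp3l left end: agtgaatgaGATCatccacacag
Ranbp3l right end: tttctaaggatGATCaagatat

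Wide anchors were runs of many DpnII fragments. The 859 wide anchors without unsequenced bases held a median of 13 inner GATC sites, against 3 in narrower anchors, and 18.3 sites per 10 kb against 15.4. Median length was 7133 bp in wide anchors (quartiles 6445 and 8386 bp) and 2305 bp in narrower ones. The closest neighboring anchors lay 501 bp apart. The widest anchor, chr15:9013743-9054862 (41120 bp), lay 6477 bp from the nearest start of Ranbp3l and consisted to 93.4% of unsequenced bases of the assembly, with 3, 2, 1 and 1 loops. A wide anchor at the start of Ppp2r3d on chromosome 9 (10342 bp) had 50.2% unsequenced bases and 8 loops. Without unsequenced bases 860 anchors kept a length of 6000 bp or more. The other 9 of the 10 widest anchors measured 14776 to 18592 bp. They lay at the starts of the antisense RNA Gm35853 and of Gm49499 beside the keratin genes, of the cytolinker gene Plec, of C1qtnf1, of the circadian receptor gene Nr1d1, of Lasp1, of Cdc42ep1 and Lgals2, and of the retinoic acid receptor gene Rara, inside Pmepa1, and beside the noncoding AC132455.2.

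Wide anchors lay at gene starts more often than narrower ones. An annotated transcription start was inside or within 2 kb of 588 of 862 wide anchors (68.2%, Wilson 95% interval 65.0 to 71.2) and 13231 of 29680 narrower anchors (44.6%, 44.0 to 45.1). The difference was 23.6 points (Newcombe 95% interval 20.4 to 26.7). A longer interval meets a start more easily. With the same 2 kb window around the midpoint of every anchor the shares were 44.7% and 39.4%. The difference was then 5.27 points (1.94 to 8.65). By midpoint, anchors of 3 to 4, 4 to 5 and 5 to 6 kb had 46.0%, 46.7% and 50.6%. These shares lay above that of all wide anchors, and at 10 kb or more the share was 35.05%. Counted per length, fewer genes started in wide anchors, with 11.7 genes per 100 kb against 17.6 in narrower ones. A wide anchor held the starts of 2 or more genes in 20.7% of cases, against 8.37% of narrower anchors. Of the 274 wide anchors without a start within 2 kb, 113 were intergenic, 92 lay inside an intron and 69 covered exon and intron sequence.

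**Figure D1:**
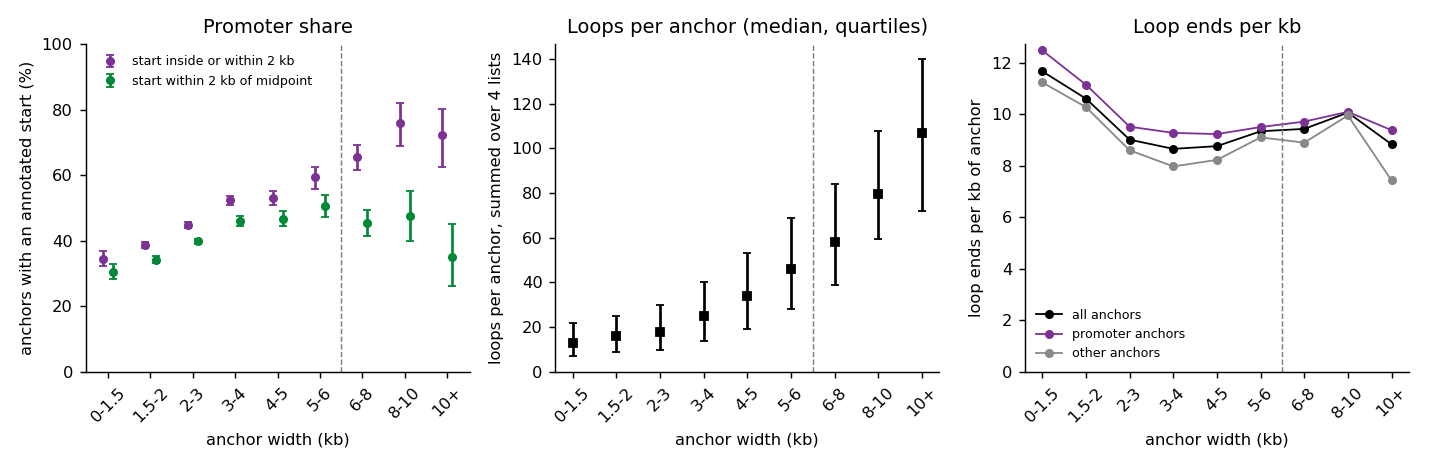
Promoter share, loops per anchor and loop ends per kb of anchor by width class in kb, with the 6 kb limit as a dashed line. Bars are Wilson 95% intervals on the left and quartiles in the middle. The share of anchors with a start inside or within 2 kb rose with width up to 75.9% at 8 to 10 kb, while the share by midpoint was highest at 5 to 6 kb (50.6%), and loop ends per kb stayed between 8.65 and 11.7 in all classes.

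Markers of the labelled epithelial cell type were among the genes at wide anchors. Of 14 ductal and simple epithelial markers, 7 started at a wide anchor (Krt7, Krt8, Krt18, Krt19, Cdh1, Sox9 and Muc1), against 599 of 21728 protein-coding genes (2.76%). Of 82 markers of acinar, endocrine, hepatocyte, T and B, myeloid, fibroblast, stellate and endothelial cells 0 did, and 14 of these 82 had a narrower anchor at their start. Over all protein-coding genes with an anchor the share at a wide one was 5.55%, and nothing is read from a count of 0 among 14. The Krt19 anchor, at the gene of a simple epithelial keratin, measured 8453 bp and had 61, 42, 27 and 30 loops. The Muc1 anchor, shared with Thbs3, had 40, 40, 38 and 27 loops, and the anchor of Cdh1, which encodes E-cadherin, had 41, 29, 19 and 28. Sox9, a ductal transcription factor, had fewer, with 22, 18, 13 and 16. Lists of this kind were chosen with results of these data known and their counts were not tested.

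The AP-1 and immediate early factors came next, with 8 of 18 genes at wide anchors (Myc, Atf3, Mafk, Fosb, Junb, Jund, Fosl2 and Ier2). The Myc anchor had the most loops of this list, 35, 30, 25 and 21, and the Junb anchor was the widest at 11923 bp, with 29, 20, 16 and 20 loops. Among 18 epithelial junction genes 5 were at wide anchors, led by Jup (plakoglobin) with 41, 42, 34 and 29 loops. The other junction genes were Cdh1, the plakophilin gene Pkp3, F11r and Cgn, and the last of these had only 36 loops in all. Klf3, Klf4, Klf5 and Klf10 represented 4 of 17 KLF factors. All 22 foregut and pancreatic transcription factors had an anchor, but only Foxa2, Sox9, Onecut2, Klf4 and Klf5 had a wide one. Of the genes of the assayed factors, Foxa1 started at an anchor of 5222 bp with 30 loops and Hnf4g at one of 1976 bp with 3 loops.

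Of 19 RAS pathway and feedback genes 4 started at wide anchors. The anchor of the receptor tyrosine kinase gene Erbb2 had 50, 48, 28 and 42 loops, and the phosphatase genes Dusp4 and Dusp5 and the feedback inhibitor gene Errfi1 had 58 to 79 loops each. Vegfa (142 loops), the glycolytic gene Tpi1 (115), Hk1 (39) and Pgk1 (1) were the 4 of 17 glycolysis and hypoxia genes at wide anchors. Smaller shares were found for 4 of 25 chromatin regulators (among them Arid1a and Arid1b), 2 of 19 cell cycle genes (Tk1 and Ccnd1), 5 of 77 ribosomal protein genes and 1 of 15 mesenchymal transition genes (S100a4). Among 12 abundant noncoding RNA genes 1 was at a wide anchor, Neat1. No HOX gene (of 39) and no replication-dependent histone gene (of 67) had a wide anchor, while 10 and 35 of them had a narrower one. Beside the 5.55% over all anchored genes, nothing is read from these zeros either.

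**Figure D2:**
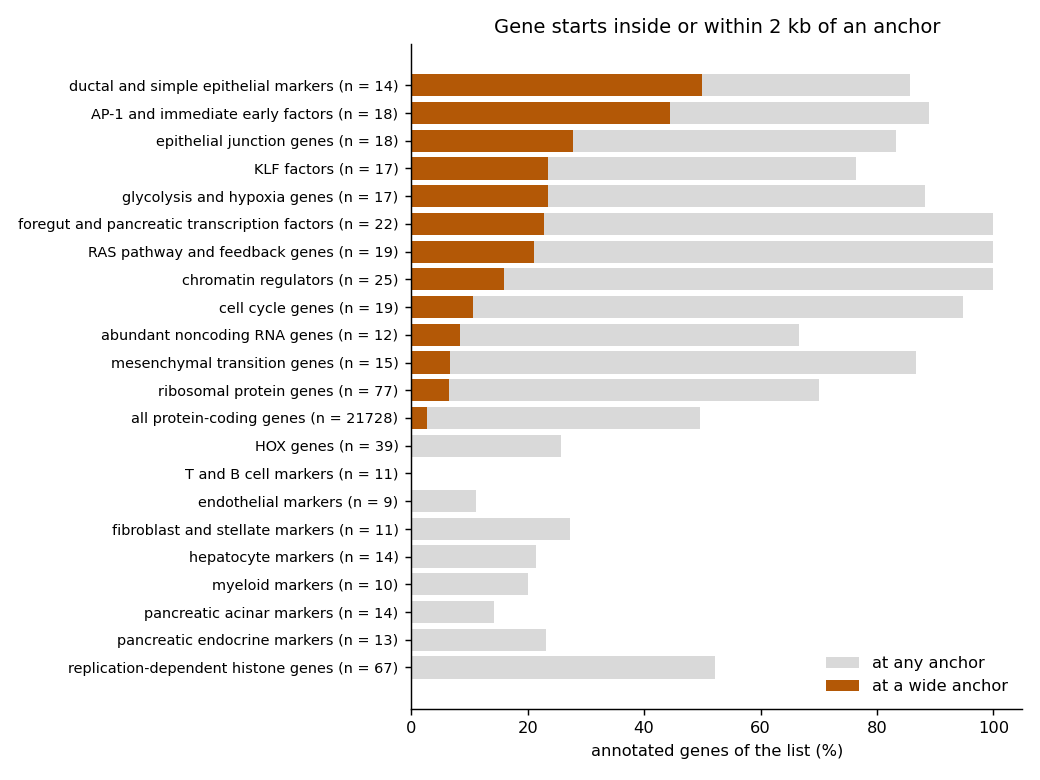
Percent of the annotated genes of each list with a transcription start inside or within 2 kb of any anchor (grey) and of a wide anchor (brown), with the number of annotated genes in brackets. Ductal and simple epithelial markers had the highest share at wide anchors (7 of 14), and all protein-coding genes had 2.76%.

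The promoters of Krt18 and Junb are shown as examples of starts inside wide anchors, from the RefSeq promoter table of GRCm38.p6, with every CpG in capitals. They are chr15:102027966-102028265 (plus strand) with 17 CpG and chr8:84978699-84978998 (minus strand) with 21 CpG. The median over all 32851 promoters of this table was 7.
Krt18 promoter: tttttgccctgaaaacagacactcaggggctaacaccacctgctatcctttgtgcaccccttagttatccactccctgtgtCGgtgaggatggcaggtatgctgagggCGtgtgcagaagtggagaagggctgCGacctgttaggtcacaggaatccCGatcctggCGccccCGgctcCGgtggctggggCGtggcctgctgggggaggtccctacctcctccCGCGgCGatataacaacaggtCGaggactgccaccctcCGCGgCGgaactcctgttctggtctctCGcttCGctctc
Junb promoter: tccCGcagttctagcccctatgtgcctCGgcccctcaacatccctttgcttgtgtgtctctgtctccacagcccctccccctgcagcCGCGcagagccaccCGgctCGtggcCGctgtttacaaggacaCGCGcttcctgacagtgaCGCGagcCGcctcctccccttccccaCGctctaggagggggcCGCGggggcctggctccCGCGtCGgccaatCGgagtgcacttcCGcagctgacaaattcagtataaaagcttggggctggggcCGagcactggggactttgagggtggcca

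Promoter windows inside wide anchors held a median of 18 CpG (637 windows, quartiles 8 and 27), against 22 in narrower anchors (10311 windows, quartiles 13 and 30). Over whole anchors with a start, CpG was rarer in wide ones, with 21.3 against 30.0 CpG per kb (medians). The ratio of observed to expected CpG was 0.320 in wide and 0.467 in narrower promoter anchors.

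Short motifs were counted on both strands in anchors without unsequenced bases. The forkhead core TGTTTAC occurred 1.54 times per 10 kb in wide and 1.81 times in narrower anchors, and 66.5% and 35.8% of them held at least 1 match. Away from starts the rates were 1.68 and 2.07. The nuclear receptor motif CAAAGTCC occurred 0.502 and 0.488 times per 10 kb, the AP-1 motif TGANTCA 4.10 and 4.35 times, and the GC-rich CCGCCC 6.96 and 7.19 times. The anchors without a start that had the most loops varied, with 2 TGTTTAC matches in the anchor beside Malat1, 4 in the anchor beside Plekhg6 and 0 in the other 3. The first match in 2 of them is shown in capitals, at chr19:5808392-5808428 and chr6:125405995-125406031, both on the minus strand.
Malat1 side: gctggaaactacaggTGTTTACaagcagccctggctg
Plekhg6 side: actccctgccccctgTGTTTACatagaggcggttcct

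Wide anchors had more loops each, in proportion to their length. Summed over the 4 lists, the median was 67 loops per wide anchor (quartiles 44 and 94) and 19 per narrower anchor (10 and 32), and the means were 73.8 and 23.7, a ratio of 3.11. Of the 863 anchors with 80 or more loops 322 were wide (37.4% of wide anchors) and 541 were narrower (1.82% of narrower anchors). All 10 anchors with 200 or more loops were wide. Per kb of anchor the densities were 9.45 and 9.32 loop ends, a ratio of 1.01 (exact 95% interval 1.01 to 1.02). Among promoter anchors alone the ratio was 0.999 (0.989 to 1.01) and among the others 0.988 (0.973 to 1.00), so the small excess over all anchors was seen in neither class. Per DpnII fragment of the anchor the counts were 4.85 and 4.82.

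Fragment size divided the wide anchors. In 491 of them the longest DpnII fragment made up under 25% of the anchor, and these had 10.4 loop ends per kb. In 333 it made up 25% to under 50%, with 8.41 loop ends per kb, and in 38 it made up 50% or more, with 4.59. The share of promoter anchors in these classes was 70.7%, 64.9% and 65.8%. Per fragment the same classes had 4.75, 5.07 and 4.81 loop ends. Unsequenced bases were counted as part of a fragment. The class of 50% or more therefore included the widest anchor (longest stretch 39473 bp of 41120 bp, 7 loops). It also included the anchor at Ppp2r3d (7078 bp of 10342 bp, 8 loops). The densities were not recalculated without these anchors. Examples of single long fragments were the start of the calcium pump gene Atp2c1 (longest fragment 5978 bp of 6312 bp, 3 loops) and that of Cp, the ceruloplasmin gene (5154 bp of 6048 bp, 4 loops). In all, 21 wide anchors had 10 or fewer loops, and in 10 of these the longest fragment was 50% or more of the anchor. The widest anchor and that at Ppp2r3d were among these 10. The fewest loops were at Pgk1 on the X chromosome, with 1 loop, in FOXA1 tumour.

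Of the 10 wide anchors with the most loops, 5 lay on chromosome 19. The anchor at the starts of Ehbp1l1, Fam89b and Sssca1 on chromosome 19 had 70, 55, 49 and 54 loops. Close to it, at Ltbp3, which encodes a TGF-beta binding protein, an anchor of 6242 bp had 65, 48, 49 and 48 loops, or 33.6 per kb. Beside the noncoding RNA gene Malat1, and over its neighbor Neat1, 3 wide anchors followed each other. They had 70, 55, 46 and 46 loops (intergenic, 5579 bp from Malat1), 74, 57, 42 and 44 (start of Neat1) and 78, 58, 39 and 50 (start of Neat1 and Frmd8os). In all 3 the FOXA1 liver mets list was highest in count, as it was in all of the 10 anchors with the most loops, and it was also the longest list.

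Another 3 of them lay on chromosome 11. The anchor over Tk1, the thymidine kinase gene, and Afmid had 80, 49, 34 and 46 loops, that of the actin-binding protein gene Lasp1 70, 53, 41 and 51, and that of C1qtnf1 67, 55, 37 and 52. The remaining 2 lay at Cdc42ep1 and Lgals2 on chromosome 15 (70, 64, 40 and 44) and at Cirbp, which encodes a cold-inducible RNA-binding protein, on chromosome 10 (58, 53, 41 and 53). In 8 of the 10 the HNF4G liver mets count was the lowest of the 4. The exceptions were Ltbp3, where FOXA1 tumour and HNF4G tumour had 48 each, and the anchor beside Malat1, where both HNF4G lists had 46.

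**Figure D3:**
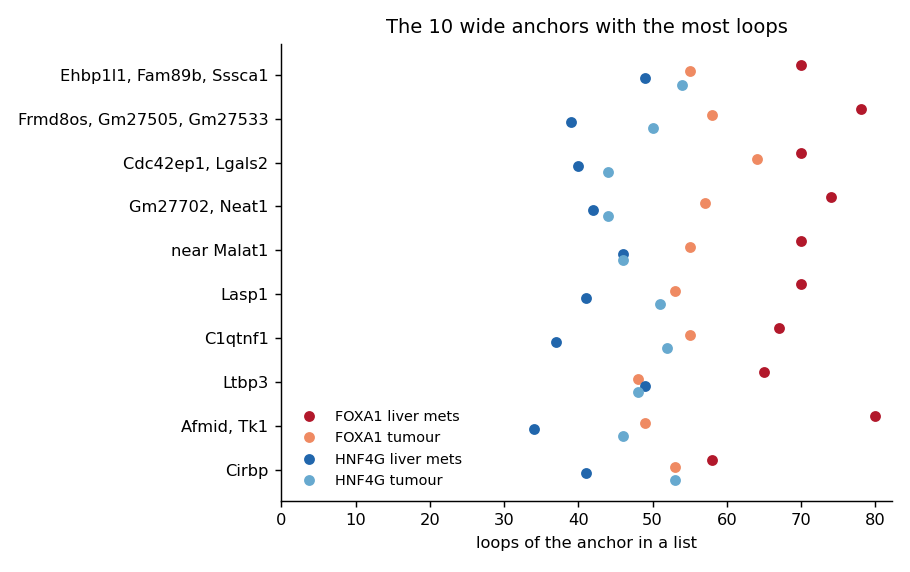
Number of loops in each list (dots by list) at the 10 wide anchors with the most loops, with the anchor's genes on the vertical axis. FOXA1 liver mets lies furthest to the right at all 10, from 58 loops at Cirbp to 80 at Afmid and Tk1.

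Wide anchors were unevenly spread. Chromosome 11 held 111 of them, 4.61% of its anchors (3.84 to 5.52), and chromosome 15 held 65 (4.44%, 3.50 to 5.62), whereas chromosome 18 held 11 of 765 and the X chromosome 2 of 295. They had a median of 57 other anchors within 1 Mb, against 42 around narrower anchors. Another wide anchor lay within 50 kb of 256 of them (29.7%). In 25 runs 3 or more followed each other at such distances. The longest run, of 6, lay on chromosome 10 over Arid3a, Gpx4 and Sbno2, with 824 loop ends. Single genes were also overlapped by several wide anchors, in whole or in part. Dagla was overlapped by 4, and Baiap2, Rara, Ahnak, Sh3bp4, Vgll4, Smad3, Shb and Abr by 3 each.

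The keratin genes of chromosome 15 carried 9 wide anchors in 2 runs. The first run covered Gm35853, Krt80 and Krt7 (chr15:101314431-101429743) and the second Krt8 and Krt18 (chr15:101973971-102035809). This region was chosen after its values had been seen. Of the 36 pairs that these 9 anchors can form, 35 were listed as a loop in at least 1 list and 23 in all 4. By list, 34, 33, 27 and 30 pairs were listed. Of the 20 pairs that join the runs, more than 500 kb apart, 11 were listed in all 4 lists. The loop from the Gm35853 and Gm49499 anchor to the Krt18 anchor, which spanned 705 kb, had the highest deposited value, 20, in every list. The Krt8 anchor had 31, 27, 20 and 23 loops, the Krt7 anchor 28, 23, 13 and 17, and the Krt18 anchor 57, 43, 35 and 36.

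Each loop carries a deposited value that was taken as the −log10 of an adjusted p and that ends at 20. Wide anchors were frequent among the highest values. Of the loops at 20, the share with a wide anchor was 83.8% (275 of 328), 86.8% (99 of 114), 88.2% (67 of 76) and 82.0% (91 of 111) in the 4 lists, against 15.5%, 15.1%, 15.7% and 17.1% of all loops. A value of 2 or more was reached by 17.1% to 22.3% of loops with a wide anchor, by 42.2% to 53.4% of loops between 2 wide anchors and by 5.29% to 6.95% of the others. When only the loops at 2 or above were kept, wide anchors had 3.02 times as many loop ends per kb as narrower ones (2.96 to 3.08), unlike the even density over all loops. The paired reads behind a value were not used here, and how far the length of the anchors sets the value was not tested.

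Only 26 loops stood at the top value in all 4 lists. A wide anchor was part of 25 of them, and both anchors were wide in 18. Besides the keratin loops of chromosome 15, these 18 included Krt19 to Gm12349 (140 kb), Klf10 to an intergenic anchor (171 kb) and Fam43a to Gm15742 (371 kb). Irf2bp2, which encodes an IRF2-binding protein, was joined to an anchor in A630001O12Rik at 257 kb. The others included pairs at Epha2, an ephrin receptor gene, at Itga3, an integrin gene, at Ahnak, at Neat1, and from Midn to Cirbp, Ehbp1l1 to Ltbp3 and Lzts2 to Pdzd7.

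Loops between wide anchors were in all 4 lists more often than other loops. Of the 1295 distinct loops with 2 wide anchors 29.1% (26.7 to 31.7) were in all 4 lists, against 12.8% (12.4 to 13.2) of those with 1 and 4.07% (3.98 to 4.15) of those with none. At 100 to 200 kb these shares were 52.0%, 12.5% and 2.01%. At 500 to 1000 kb they were 7.43%, 0.948% and 0.104%. The 7.43% stood for 22 of 296 loops, and 11 of these 22 joined the 2 keratin runs of chromosome 15. Pairs of wide anchors were also listed more often in each single list. At 100 to 200 kb, 90.79%, 78.95%, 75% and 75% of all such pairs were listed in the 4 lists. For pairs without a wide anchor the shares were 23.56%, 19.91%, 14.59% and 14.01%. Whether wide pairs recurred beyond what these listing shares give was not tested.

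All anchor pairs of 1 chromosome with midpoints over 5 kb and up to 2000 kb apart were then taken as possible loops. In FOXA1 liver mets all 55 pairs of wide anchors at 10 to 20 kb were listed, against 64.0% of pairs without a wide anchor. At 500 to 1000 kb the shares were 43.2% (38.6 to 48.0) and 4.61% (4.54 to 4.69), a ratio of 9.37 (8.39 to 10.5). Over span ranges and lists the Mantel-Haenszel ratio was 4.26 (4.20 to 4.33). It was 4.11 (4.001 to 4.217), 3.89 (3.77 to 4.02), 4.29 (4.13 to 4.45) and 4.999 (4.83 to 5.18) in the 4 lists, highest in HNF4G tumour, the shortest list. At 5 to 10 kb all wide pairs were listed in every list. The ratios there, 1.32, 1.39, 1.47 and 1.67, thus followed the narrower pairs alone. How far the length of a list sets these ratios was not tested.

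A pair of wide anchors offers more kb to join. Set against the product of the anchor lengths, the density of listed pairs between wide over that between narrower anchors at 500 to 1000 kb had ratios of 0.949, 0.924, 0.989 and 1.24 in the 4 lists. At 1000 to 2000 kb they were 1.15, 0.973, 1.28 and 1.22. At 10 to 20 kb the ratios were 0.150 to 0.206, where nearly every wide pair was already listed and a pair counts only once.

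**Figure D4:**
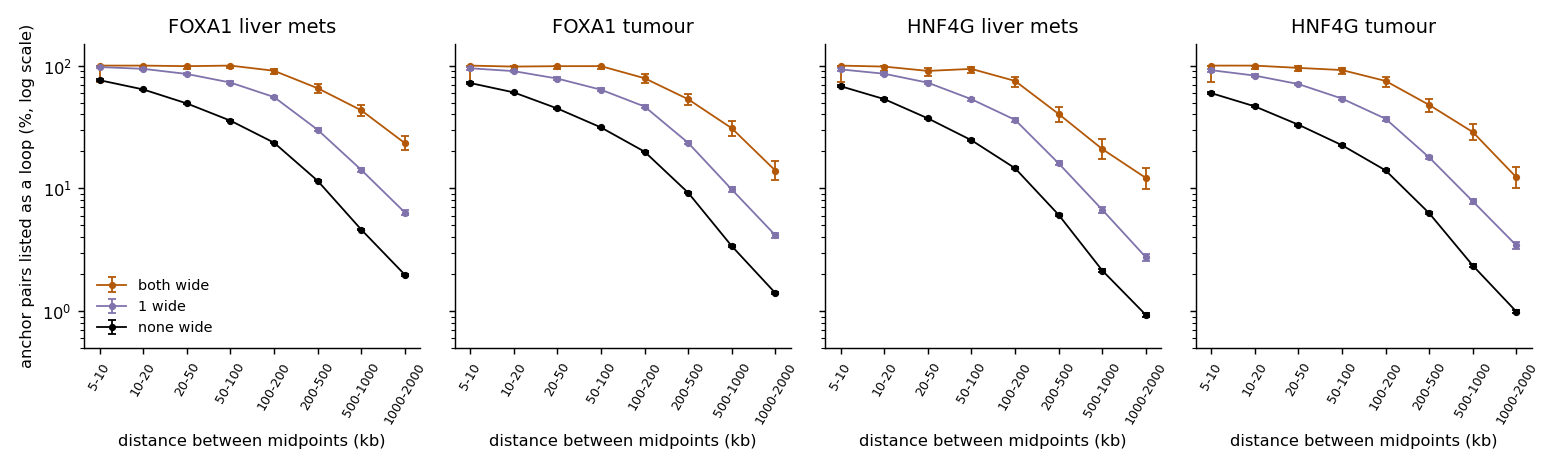
Percent of possible anchor pairs listed as a loop (log scale) by distance between midpoints in kb, for pairs with 2, 1 or no wide anchors, with 1 panel per list and Wilson 95% intervals. The line for 2 wide anchors is the highest in every panel, and its ratio to the line for none grows with distance. In FOXA1 liver mets the shares were 100% against 76.1% at 5 to 10 kb and 43.2% against 4.61% at 500 to 1000 kb. At 1000 to 2000 kb they were 23.3% against 1.98%, so in percentage points the gap did not widen throughout.

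Wide anchors were used in nearly all lists, 861, 861, 856 and 855 of the 862, and 98.96% were used in all 4, against 80.85% of narrower anchors. Loops with a wide anchor had longer spans, with medians of 206, 172, 139 and 157 kb against 157, 136, 110 and 126 kb for the other loops.

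Between the factors and lines, the share of loops with a wide anchor was highest in HNF4G tumour. It was 15.5% (15.3 to 15.7) in FOXA1 liver mets, 15.1% (14.9 to 15.3) in FOXA1 tumour, 15.7% (15.4 to 16.0) in HNF4G liver mets and 17.1% (16.8 to 17.4) in HNF4G tumour. For HNF4G, liver mets minus tumour was -1.39 points (-1.76 to -1.02). The difference was negative in all span ranges, with intervals that included 0 at 5 to 10, 100 to 200 and 500 to 1000 kb. For FOXA1 it was 0.453 points (0.157 to 0.749), and within span ranges only the interval at 1000 to 2000 kb lay above 0 (1.37, 0.284 to 2.45). Below 50 kb the FOXA1 differences were -0.287, -0.146 and -0.140 points, with intervals that all included 0. In tumour, FOXA1 minus HNF4G was -2.00 points (-2.34 to -1.65), again negative in all span ranges. In liver mets it was -0.154 points (-0.479 to 0.170), an interval that includes 0. Within span ranges it was below 0 at 20 to 50 kb (-1.44, -2.24 to -0.633), 50 to 100 kb (-0.811, -1.61 to -0.0187) and 100 to 200 kb (-0.847, -1.64 to -0.0657), and at 1000 to 2000 kb it was 1.08 (-0.167 to 2.30). For loops with 2 wide anchors the difference was -0.0876 points (-0.168 to -0.00874). Intervals between lists hold no spread between cultures, so whether these differences exceed that spread was not tested.

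**Figure D5:**
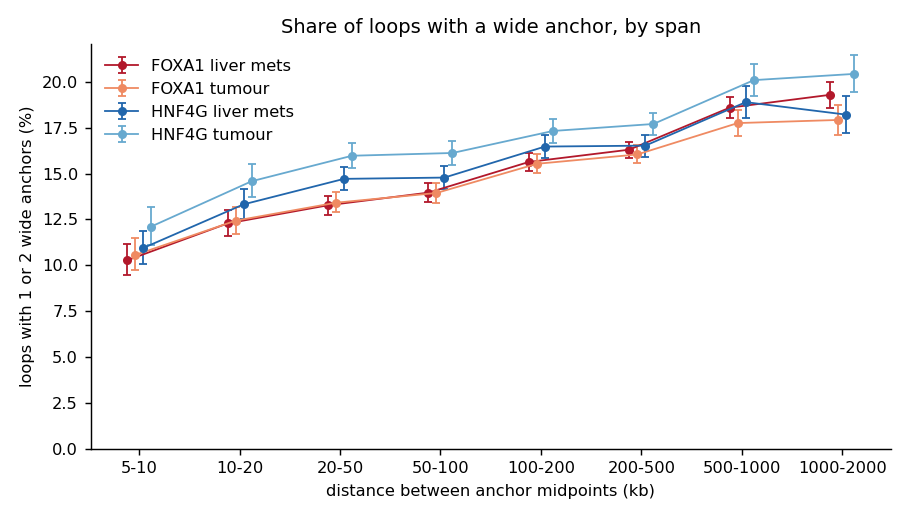
Percent of loops with 1 or 2 wide anchors by distance between anchor midpoints in kb, for the 4 lists, with Wilson 95% intervals. HNF4G tumour is the highest line in every span range, from 12.1% at 5 to 10 kb to 20.4% at 1000 to 2000 kb.

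In HNF4G the liver mets list had fewer loop ends than the tumour list at anchors with starts, wide and narrower. The number of loop ends at wide promoter anchors was 9137 in liver mets and 9963 in tumour, a ratio of 0.917 (0.891 to 0.944). At wide anchors without a start it was 3777 and 3792, a ratio of 0.996 (0.952 to 1.04), and at narrower anchors 1.03 (1.02 to 1.04). Loop ends per kb in HNF4G liver mets and tumour were 1.97 and 2.15 at wide promoter anchors, 2.01 and 2.05 at narrower promoter anchors, 1.80 and 1.81 at the other wide anchors and 1.79 and 1.65 at the other narrower ones. In FOXA1 the ratios were 1.24 (1.21 to 1.27), 1.25 (1.21 to 1.30) and 1.20 (1.20 to 1.21). By chromosome, the HNF4G ends at wide anchors, as shares of their lists, were lower in liver mets on 17 of 20 chromosomes. The interval lay below 1 on chromosomes 1, 10 and 11, with the lowest of these ratios on chromosome 11 (0.817, 0.771 to 0.865). Loop ends per kb of wide over narrower anchors were 0.997 (0.983 to 1.01), 0.966 (0.951 to 0.982), 1.01 (0.995 to 1.03) and 1.11 (1.09 to 1.13) in the 4 lists. Only in HNF4G tumour did wide anchors have a density above that of narrower anchors with an interval clear of 1.

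Single wide anchors seldom differed 2-fold between lists. With 20 or more loops summed over both lists and counts taken as shares of the list, 9 of 758 wide anchors were at least 2-fold higher in liver mets for FOXA1 (1.19%), against 2.20% of all anchors tested. The count lower in liver mets was 1 (all anchors, 1.30%). For HNF4G, 1 of 601 was higher (all anchors, 1.60%) and 8 were lower (all anchors, 3.73%). In tumour, 5 of 654 were higher in FOXA1 than in HNF4G (all anchors, 2.22%) and 10 lower (all anchors, 4.87%). In liver mets, 11 of 711 were higher in FOXA1 (all anchors, 3.49%) and 3 lower (all anchors, 2.72%). The calls between factors turned on the scaling, since with counts as listed 30 wide anchors were higher in FOXA1 and 0 lower in tumour, and 157 and 0 in liver mets. In all 8 counts the share of wide anchors lay below that of all anchors, which had fewer loops each. The median log2 ratio of list shares over wide anchors was 0.03 for FOXA1 liver mets over tumour and -0.12 for HNF4G, against -0.01 and -0.03 over all anchors tested.

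At an equal minimum of 40 loops the numbers were small. For HNF4G, 2 of 224 wide and 11 of 325 narrower anchors were at least 2-fold lower in liver mets. In tumour, 4 of 283 wide and 28 of 518 narrower anchors were lower in FOXA1 than in HNF4G. In liver mets, 3 of 356 wide and 4 of 688 narrower anchors were higher in FOXA1.

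Among wide anchors with 40 or more loops over the 2 lists compared, that of Cbx8 had the ratio farthest from 1. The anchor lay at the start of Cbx8 (chr11:119037193-119043809), a gene of the Polycomb repressive complex. It had 34, 37, 25 and 69 loops. HNF4G tumour alone was high there, and its ratio of liver mets to tumour was 0.354 (exact interval 0.215 to 0.567) in HNF4G, with FOXA1 over HNF4G in tumour at 0.393 (0.256 to 0.594). In both comparisons an anchor of Rara was the next lowest. Of its 3 wide anchors, 1 had 39, 34, 19 and 40 loops (HNF4G liver mets over tumour 0.464, 0.254 to 0.820). Another had 40, 22, 24 and 39 (FOXA1 over HNF4G in tumour 0.413, 0.234 to 0.715). Both HNF4G tumour counts stood at or near the top of their anchor. The remaining Rara anchor had 57, 53, 34 and 42 loops, and HNF4G tumour was not near the top there. Its ratios were 0.791 (0.488 to 1.27) for HNF4G liver mets over tumour and 0.925 (0.605 to 1.42) for FOXA1 over HNF4G in tumour. The anchor at the start of Sh3bp4 had 33, 27, 15 and 29 loops (0.506, 0.252 to 0.974), with HNF4G liver mets lowest. Another of the 3 wide anchors that overlap this gene went the other way, with 31 in HNF4G liver mets and 22 in tumour. The 3 together had 59 in liver mets and 68 in tumour. At Slc6a6, the taurine transporter gene, the counts were 26, 16, 18 and 26, and the tumour ratio of FOXA1 over HNF4G was 0.451 (0.226 to 0.873).

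For FOXA1, the highest ratios of liver mets to tumour with 40 or more loops were at Sema7a, a semaphorin gene (32 and 15 loops, ratio 1.77, 0.930 to 3.51), and Rptor, which encodes a partner of mTOR (56 and 27, 1.72, 1.07 to 2.83). The lowest was at B4galnt1 (19 and 27, 0.583, 0.307 to 1.09). Of these 3 intervals only that of Rptor excluded 1. The highest for HNF4G were at the corepressor gene Tle3 (33 and 22), in Bpgm (24 and 16) and at the syndecan gene Sdc4 (29 and 20), with intervals that all included 1.

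In liver mets, FOXA1 counts were highest over HNF4G at Tob2 (32 and 8 loops, ratio 2.49, 1.12 to 6.25), the noncoding Gm5122 (38 and 10, 2.36, 1.16 to 5.32) and Hhex, a homeobox gene of the foregut (37 and 11, 2.09, 1.04 to 4.55). In tumour the counts were 21 and 14 at Tob2 (ratio 1.10), 22 and 11 at Gm5122 (1.47) and 19 and 17 at Hhex (0.819), with intervals that all included 1. In tumour, the highest were at Mafk (27 and 13, 1.52, 0.759 to 3.21), Gm38140 (35 and 20) and Rpl10a with Tead3 (33 and 19), and none of their intervals excluded 1. The lowest ratios in liver mets were 0.553 to 0.574, at the noncoding AC091309.5 and 3300005D01Rik and at the polarity gene Crb3, where FOXA1 and HNF4G had 24 and 26 loops. These extremes were picked for their ratios, so their size is a description only.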

How the data were processed

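Hi-ChIP of FOXA1 and HNF4G was analysed from 4 deposited loop lists (8 samples, 2 replicates per list, joined in a way that the sources used here do not state). The authors processed reads with HiC-Pro (version 3.1.0 in the submitters' processing notes, defaults, mm10, DpnII fragments, duplicates removed) and called loops with hichipper. Each loop has a value that the authors deposited without a name and that was taken as the −log10 of an adjusted p, and a display score, which the authors deposited and which was not used. Read depth is unknown.

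Anchors were the distinct intervals of the 4 lists. Starts and genes came from GENCODE M21, sequence from GRCm38 and promoters from the RefSeq table, in which 31 of 46 listed genes at wide anchors were found. The span of a loop is the distance between anchor midpoints. A loop end is 1 anchor of 1 loop. Shares have Wilson, differences Newcombe, ratios of counts exact (Clopper-Pearson) and ratios of pair shares log (Katz) or Greenland-Robins 95% intervals. Calls compare list shares (2-fold, 20 loops or more). With 1 list per group, no test was run. Code was tested on simulated lists (Python 3.11.15, pandas 2.3.3, numpy 2.4.6).

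Anchors named were the 10 widest, the 10 with the most loops, the 3 highest and 3 lowest of each comparison with 40 loops or more, the 5 without a start with the most loops, those next to the width limit, up to 4 per gene list and loops at the top value. The anchors with the fewest loops, the keratin region, the fragment classes and the genes with several wide anchors were added after values were seen. The members and lists were chosen with earlier results of these data known. Alternatives varied the width limit, the chromosomes, the loops kept, the promoter definition and the call rule.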

Additional observations from a re-analysis of the deposited data

Results flagged for a closer look

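Over all spans, the share of loops with a wide anchor differed between liver mets and tumour in opposite directions in the 2 factors. It was 0.453 points higher in liver mets than in tumour for FOXA1 and -1.39 points (lower) for HNF4G, with 1 list on each side. Whether FOXA1 and HNF4G differ in this was not tested. Below 50 kb the FOXA1 difference was negative like that of HNF4G (-0.287, -0.146 and -0.140 points in 3 span ranges). Over all spans its interval included 0 with a width of 8000 bp or more (0.193, -0.00551 to 0.390) and with values of 2 or more (0.273, -1.09 to 1.64).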

How the results depend on the processing

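No paired analysis was possible because each list covers both replicates, and for the same reason no replicate could be left out. Of 91 recalculated values 34 stayed within the main interval or within 1.5 times the main count, 54 moved and 3 reversed from an interval clear of no difference. Without a spread between lists, counting intervals are narrow, and a value outside them counts as moved. The reversed values were the ratios of loop ends per kb, 0.893 with only anchors used in all 4 lists, 0.999 with only promoter anchors and 0.988 without them.

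With a width of 5000 bp or more, the promoter share difference was 19.7 points, loops per anchor 2.73, pair share 3.87 and the tumour difference of FOXA1 minus HNF4G -2.45 points. With 8000 bp or more these were 29.5, 3.94, 4.92 and -0.867, and HNF4G liver mets minus tumour was -0.620. The promoter share difference was 27.7 with a start inside the anchor and 5.27 by midpoint. With only anchors used in all 4 lists, loops per anchor were 2.67, pair share 3.91, the tumour difference of the factors -1.59 and the liver mets difference 0.207, which changed sign from an interval that already included 0. With values of 2 or more, loops per anchor were 9.24, per kb 3.02, pair share 41.1, HNF4G liver mets minus tumour -2.43, and FOXA1 minus HNF4G -3.22 in tumour and -0.517 in liver mets. With spans of 20 kb or more, loops per anchor were 3.21, per kb 1.05 and pair share 4.95. Loops per anchor were 2.94 in promoter anchors and 3.53 by medians. Loop ends per kb were 1.09 by medians, and, in alternatives chosen after seeing the data, 1.12 for wide anchors with a longest fragment under 25% and 1.01 per DpnII fragment.

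Call counts depended on the rule. They are given as higher and lower in liver mets for FOXA1, then for HNF4G, then higher and lower in FOXA1 for tumour, then for liver mets. At 1.5-fold they were 49, 15, 20, 69, 23, 83, 52 and 42. With a minimum of 40 loops they were 0, 0, 0, 2, 0, 4, 3 and 0. With counts as listed they were 29 (FOXA1 liver mets higher), 2 (HNF4G liver mets higher), 30 and 0 (tumour), and 157 and 0 (liver mets). With spans of 20 kb or more, 2 (FOXA1 lower), 14 (HNF4G lower) and 3 (FOXA1 higher, tumour) differed. Without chromosome 11, also chosen later, HNF4G liver mets minus tumour was -1.10 points.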

Other observations

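Among wide anchors with no start within 2 kb, those with the most loops after the one beside Malat1 were intergenic. They lay 7670 bp from Gm11726 on chromosome 11 (58, 44, 27 and 45 loops in FOXA1 liver mets, FOXA1 tumour, HNF4G liver mets and HNF4G tumour), 2864 bp from AC124502.2 on chromosome 19 (56, 34, 34 and 44), 8901 bp from Gm11789 on chromosome 11 (47, 42, 36 and 41) and 24216 bp from Plekhg6 on chromosome 6 (52, 43, 35 and 35). Within the gene of the TGF-beta effector Smad3, 3 wide anchors had 207 loop ends over 31.9 kb. The 3 that overlap Ahnak, a giant scaffold protein gene, had 385 over 20.4 kb.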
